A study of Homo sapiens with 2 samples.

Results

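The polyadenylation and mRNA decay machinery was followed as 46 genes: 19 encode factors that cut and polyadenylate pre-mRNA, 3 encode poly(A)-binding proteins, and 24 encode factors that remove the poly(A) tail or degrade the mRNA. A gene was counted as bound when the list of RBMS3 sites held a position inside it on its own strand, in the GENCODE release 44 annotation of hg38. A gene with no such position was counted as unbound. Of the 27706 sites in the list, 107 lay in these genes, and the genes were taken from 20046 protein-coding genes in all.

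The list came from CLIP-seq of the RNA-binding protein RBMS3 in cells of the established triple-negative breast cancer line MDA-MB-231. The only group had 2 biological replicates of cells that stably carried a lentiviral construct for RBMS3 with an N-terminal double FLAG tag under the EF1a promoter, so the mapped protein was introduced and tagged. The replicates were pooled before sites were called, so the spread between them is unknown, and background could not be read from a control library, none of which was used here. The title of replicate 2 names MDA-MB-231, whereas its source and cell line labels read MDA-MB-232. A site is the position of a deletion that the caller assigned to crosslinking. Its depth is the number of unique pooled tags that cover it, and its deletions are the tags that carry the gap. Within a run of 1 base, the position of a deletion is not known more closely than the run. The bound RNA was tailed with A and captured with oligo(dT), so RNA with its own poly(A) tail could be captured too. The RNA-seq that the study made of this line was not used here, so the abundance of each mRNA was not taken into account. An unbound gene is one with no listed site, which may be absent or not detectable at this depth. Fewer cells with an mRNA and less of it per cell cannot be told apart in such bulk samples.

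Most mRNAs gain their 3′ end by cutting and polyadenylation. CPSF reads the poly(A) signal AAUAAA and cuts the RNA, CstF and the CFIm and CFIIm factors bind or bridge the surrounding sequence, and poly(A) polymerase adds the tail. In the cytoplasm the poly(A)-binding proteins cover the tail, PAN2-PAN3 and CCR4-NOT shorten it, the DCP2 complex removes the cap, and XRN1 degrades the body from the 5′ end. UPF1 and UPF2 act in nonsense-mediated decay. The mRNAs that encode these proteins are themselves polyadenylated and have 3′UTRs, in which RBMS3 sites were counted.

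The 7 windows of 30 bases below show 3′UTR sites that lay beside or within a poly(A) signal. They hold the site with the most deletions of 3 genes in each main group and of PABPC4. The genes are those with the most deletions in their groups once PABPC1 and LSM1, whose sequence is not printed here, are left out. The windows were read from hg38 along the transcript 5′ to 3′ with T for U. Capitals mark the AATAAA hexamer, and the base of the deletion is counted from 1 at the left.
CPSF6 (chr12:69269911-69269940, plus strand, deletion at base 20): gtagtgttgtAATAAActgtttaatggggc
CSTF1 (chr20:56406331-56406360, plus strand, deletion at base 19): gtgatttctgaAATAAActttatatacaat
PAPOLA (chr14:96567079-96567108, plus strand, deletion at base 16): cattgaaaacacAATAAAaaaaaaacagca
XRN2 (chr20:21389784-21389813, plus strand, deletion at base 6): tgaactttagtaaaaaaaAATAAAgttaaa
CNOT8 (chr5:154876757-154876786, plus strand, deletion at base 21): ttttgtaaAATAAAgatttctttttaacca
CNOT6L (chr4:77713389-77713418, minus strand, deletion at base 23): tgtaggcAATAAAtggccattttgcaactg
PABPC4 (chr1:39560827-39560856, minus strand, deletion at base 9): agtcttacgtttcccAATAAAgaaaaaaaa
All 7 lay in the 3′UTR of the last exon. In CPSF6, CSTF1, CNOT8 and CNOT6L the deletion was placed downstream of the hexamer, in XRN2 and PABPC4 upstream of it, and in PAPOLA within it, at the first base of a run of 10 A.

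Sites were found in 31 of the 46 genes (67.4%), against 37.6% of all protein-coding genes. A site in a 3′UTR was found in 28 genes (60.9%), against 31.8%, and a site with the deletion in under 30% of its tags in 27 genes (58.7%), against 29.1%. The cleavage and polyadenylation factors were bound in 14 of 19 genes (73.7%) and the deadenylation and decay factors in 15 of 24 (62.5%). With 3′UTR sites alone these were 12 (63.2%) and 14 (58.3%). Counting only sites with the deletion in under 30% of tags, they were 11 (57.9%) and 14 (58.3%), without a lead of the cleavage group. CSTF3, PCF11 and RBBP6 had only sites at 30% or more, as did CNOT4 of the decay group. The difference between the groups was not tested. Both groups lay above the share of all genes, and the part of mRNA levels in this was not tested. Among bound genes with a 3′UTR site, the median of the most deletions at 1 site was 74 in the cleavage group, 67 in the decay group and 82 over all 6372 such genes.

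**Figure D1:**
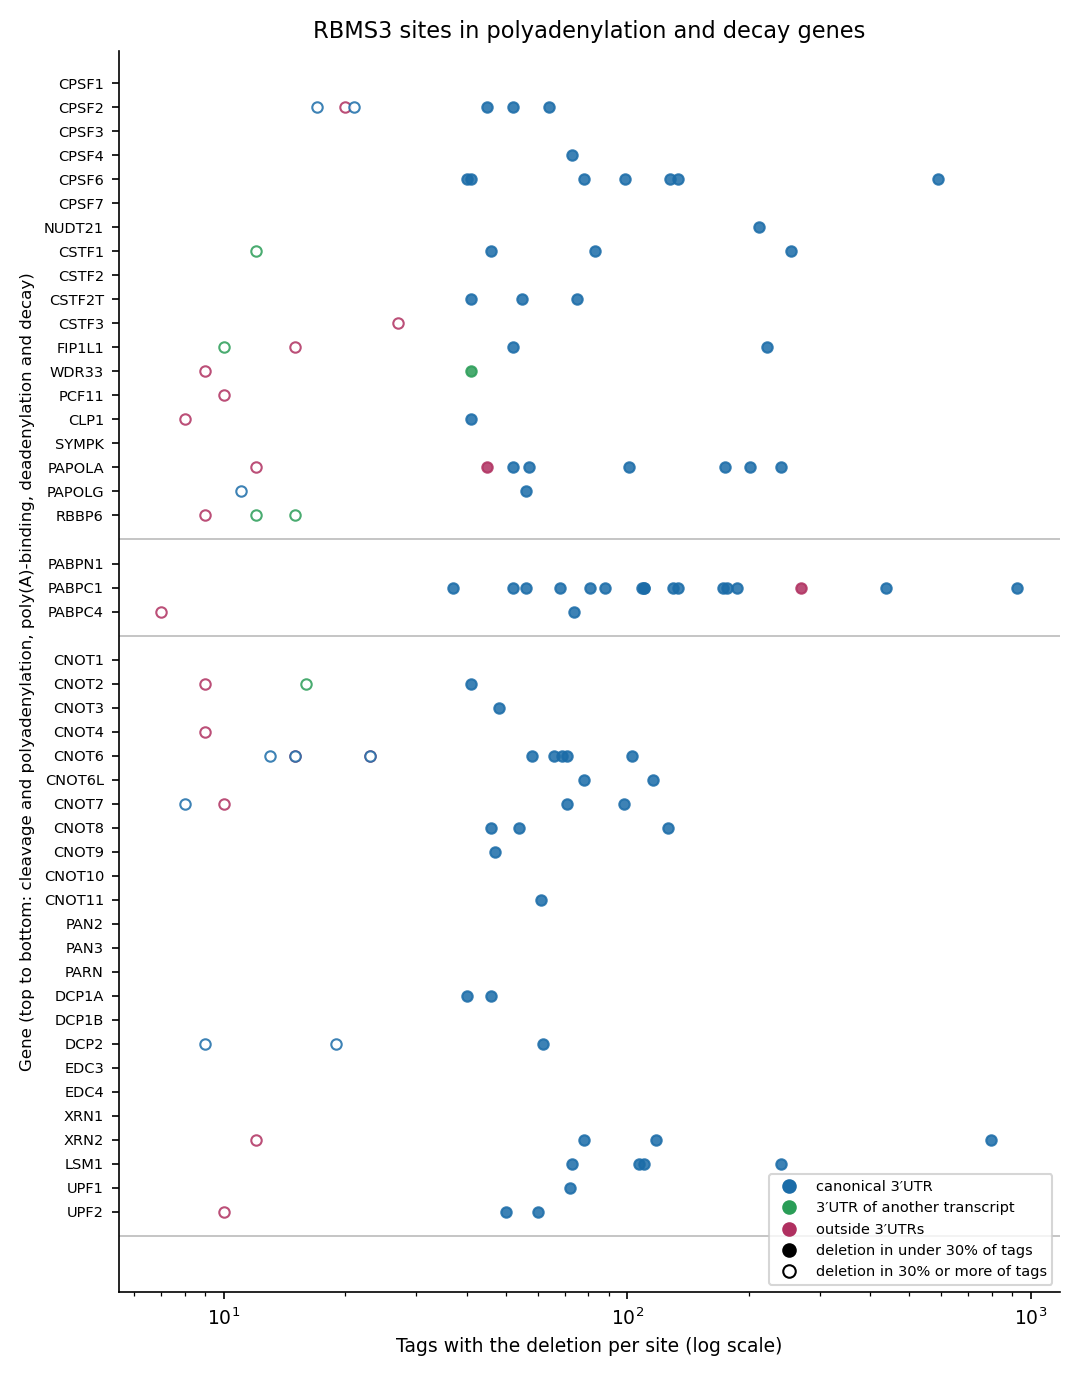
Deletions per RBMS3 site (log axis) in each of the 46 genes, with a point per site, coloured by position and filled where under 30% of the tags carry the deletion. PABPC1, XRN2 and CPSF6 hold the sites with the most deletions (925, 799 and 588), and 15 genes have no point.

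CPSF and the proteins that act with it had sites in 4 of 7 genes. FIP1L1, the subunit that recruits poly(A) polymerase, held the strongest of them, with 222 deletions among 1312 tags (16.9%, 95% Wilson interval 15 to 19) at chr4:53459665, 3 nt before an annotated end in the canonical 3′UTR. Wilson intervals, here and below, cover counting error only. That end lies upstream of the canonical one, which is 1197 nt from the site. All FIP1L1 sites, among them 2 with all 15 and all 10 tags deleted, also lie in an intron of another annotated gene on this strand. CPSF4, a zinc-finger subunit that contacts the poly(A) signal, had a single site with 73 deletions among 1013 tags (7.21%, 5.77 to 8.97), 1 nt before an annotated end at chr7:99457341. CPSF2, the catalytically inactive relative of the nuclease, and WDR33, which also reads the poly(A) signal, had sites far from any annotated end. No site was listed in CPSF1, the large scaffold, CPSF3, the nuclease itself, or SYMPK, a scaffold. Their canonical 3′UTRs were 90, 87 and 153 nt long.

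CPSF2 had the longest canonical 3′UTR of all 46 genes, 10404 nt, and its sites sat in the first part of it. The top site carried 64 deletions among 5533 tags (1.16%, 0.907 to 1.47) at chr14:92164185, 7960 nt before the end, with ATTAAA starting 10 nt upstream of the deletion. A neighbouring site 5 nt further on had 45 deletions among 5457 tags. The other sites of this 3′UTR lay 9579, 6507 and 6355 nt before the end and carried 52, 17 and 21 deletions. In intron 4, all 20 tags had the deletion. None of the CPSF2 sites was within 100 nt of an annotated end.

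CFIm, the factor that binds UGUA upstream of the cut and influences which poly(A) site is used, had sites in 2 of 3 genes. CPSF6, its larger subunit, carried 588 deletions among 14871 tags (3.95%, 3.65 to 4.28) at chr12:69269930, and 320 of the 6372 genes had a stronger 3′UTR site. This position is 9 nt before an annotated end in the first part of the 3′UTR, and 4428 nt before the canonical end. Another 4 sites lay within 44 nt of the same end, with 78 to 134 deletions. Between these ends, 1 site had 41 among 383. At the canonical end, CPSF6 had a single site with 40 deletions among 1023 tags (3.91%, 2.88 to 5.28). The tags thus numbered 14871 at the internal end and 1023 at the canonical one, while the percentages had overlapping intervals. NUDT21, the subunit that contacts UGUA, had 1 site with 212 deletions among 2916 tags (7.27%, 6.38 to 8.27), 39 nt before its only annotated end at chr16:56429172. CPSF7, the alternative large subunit, had no site in a 3′UTR of 1984 nt.

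CstF, which binds the GU-rich element downstream of the cut, had sites in 3 of 4 genes. CSTF1 carried 255 deletions among 3631 tags (7.02%, 6.24 to 7.9) at chr20:56406349, 13 nt before the canonical end, and further sites with 46 and 83 deletions lay 21 and 50 nt before it. Another CSTF1 site, with all 12 tags deleted, was in coding sequence of the canonical transcript and in the 3′UTR of another one. CSTF2T, an intronless paralog of CSTF2, had a cluster of 3 sites with 41, 75 and 55 deletions that lay 1781 to 1814 nt before its only annotated end, in a 3′UTR of 2216 nt. CSTF2 itself, the RNA-binding subunit, had none in 813 nt. CSTF3, the scaffold of the complex, had no 3′UTR site, but 1 site in an intron.

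CFIIm had sites in both genes, with only 1 of them in the 3′UTR. CLP1, a polynucleotide kinase, carried 41 deletions among 2448 tags (1.67%, 1.24 to 2.26) at chr11:57661838, 11 nt before an annotated end. It also had an intronic site with 8 of 9 tags deleted, which is in an exon of the microRNA host gene MIR130AHG. PCF11, which couples transcription termination to cutting, had all 10 tags deleted at a site in coding exon 7, and no 3′UTR site.

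PAPOLA and PAPOLG, the nuclear poly(A) polymerases, and RBBP6, a cofactor of the cutting complex, all had sites. PAPOLA had 6 sites in 1 cluster 22 to 63 nt before the canonical end, with 52 to 240 deletions among 3716 to 17037 tags. The top one, at chr14:96567094, had 240 among 15391 (1.56%, 1.38 to 1.77). PAPOLG carried 56 deletions among 539 tags (10.4%, 8.09 to 13.3) at chr2:60798442, 24 nt before an internal annotated end and 3644 nt before the canonical end, with neither AATAAA nor ATTAAA within 25 nt. RBBP6 had its strongest 3′UTR site, 15 deletions among 33 tags, in a short transcript alone. Further sites with every tag deleted were listed in RBBP6 (12 and 9 tags), in intron 10 of PAPOLA (12 tags), in the 3′UTR of PAPOLG (11 tags) and in intron 7 of WDR33 (9 tags).

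Several of the cleavage factors carried sites with AATAAA inside an intron of the canonical transcript, as did CNOT2 and CNOT7 of the decay group. Those of the cleavage factors are printed because CSTF3 and RBBP6 are known for truncated transcripts that end at intronic poly(A) sites. These 4 windows were chosen after their values were seen. Capitals again mark AATAAA, and positions are counted as above.
CSTF3, intron 3 (chr11:33123717-33123746, minus strand, deletion at base 10): tctgtcctttacattAATAAAtatctatta
WDR33, intron 6 (chr2:127764451-127764480, minus strand, deletion at base 6): gtctttaattatgcaactgAATAAAatcta
PAPOLA, intron 7 (chr14:96531682-96531711, plus strand, deletion at base 3): ttgttaacacagtagtgagttaAATAAAat
RBBP6, intron 3 (chr16:24549371-24549400, plus strand, deletion at base 21): gtttcttgcAATAAAaaatgtttggagtgt
The CSTF3 site had 27 deletions among 61 tags (44.3%, 32.5 to 56.7), and the nearest annotated end of a CSTF3 transcript with a 3′UTR is 39142 nt downstream. The WDR33 site had 41 among 141 (29.1%, 22.2 to 37) and is in the 3′UTR of another WDR33 transcript, 1942 nt before its end. The PAPOLA site had 45 among 213 (21.1%, 16.2 to 27.1). It is annotated as coding in another transcript and is 41 nt before the end of a transcript. The RBBP6 site had 15 among 33 (45.5%, 29.8 to 62) and is 10 nt before the end of the short transcript. Only the last of them thus lies within 100 nt of an annotated end of a transcript with a 3′UTR. These sites rest on 33 to 213 tags, far fewer than the end sites of PAPOLA or CPSF6.

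The poly(A)-binding group had sites in 2 of 3 genes. PABPC1, the main cytoplasmic poly(A)-binding protein, had 16 sites in its canonical 3′UTR of 448 nt, and 140 of the 6372 genes had a stronger one than its top site. That site, chr8:100702938, carried 925 deletions among 13536 tags (6.83%, 6.42 to 7.27) 22 nt before the canonical end, and the other 4 sites of its cluster had 68 to 134. A pair of sites with 173 and 56 deletions lay 245 and 253 nt before the canonical end. Another cluster lay 314 to 410 nt before the canonical end, near other annotated ends. Its top site had 439 deletions among 43753 tags (1%, 0.914 to 1.1), and it held the deepest position of the 46 genes, with 44106 tags, of which 0.295% (0.248 to 0.35) carried the deletion. PABPC1 also held the only 5′UTR site of the 46 genes, with 270 deletions among 11969 tags (2.26%, 2 to 2.54) in exon 1, 65 nt from the start of a 5′UTR of 505 nt. The window of 51 nt around it holds 21 A and a run of 8. The 5′UTR of this mRNA is known for A-rich stretches that the PABPC1 protein itself binds. The annotation names 13 pseudogenes after PABPC1, and how tags were shared between these copies is not known, so its counts are uncertain. PABPC4, a related cytoplasmic protein, had 74 deletions among 5899 tags (1.25%, 1 to 1.57), 32 nt before the canonical end, and an intronic site with all 7 tags deleted. PABPN1, the nuclear poly(A)-binding protein, had none in a 3′UTR of 880 nt.

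CCR4-NOT, the main deadenylase complex, had sites in 9 of 11 genes, 8 of them in the 3′UTR. Of its catalytic subunits, CNOT6L had a site at each of 2 ends. One carried 116 deletions among 1352 tags (8.58%, 7.2 to 10.2) at chr4:77713396, 9 nt before the canonical end. The other had 78 among 2373 (3.29%, 2.64 to 4.08) 51 nt before an internal end, 4685 nt from the canonical end. The percentages did not overlap in their intervals, with the higher one at the distal end. CNOT8, a DEDD-type nuclease, had 126 among 2042 (6.17%, 5.21 to 7.3) at chr5:154876777, 15 nt before the canonical end, with further sites of 54 and 46 deletions 48 and 42 nt before it. CNOT7, its paralog, had 98 among 3088 (3.17%, 2.61 to 3.85) at chr8:17229261. That position is 4295 nt before any annotated end downstream, in a 3′UTR of 5757 nt, with AATAAA starting 4 nt downstream of the deletion. A neighbouring CNOT7 site had 71 among 1821, and a site 1776 nt before the end had all 8 tags deleted.

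CNOT6, the paralog of CNOT6L, had the most sites of the decay group, 10 in 8 clusters. Its top site carried 103 deletions among 2313 tags (4.45%, 3.69 to 5.37) at chr5:180576770, 1577 nt before the nearest annotated end, and a site 29 nt on from it covered AATAAA with 69 among 7051 (0.979%, 0.774 to 1.24). At the end itself, 2 sites 21 and 7 nt before it had 58 among 3349 and 71 among 3467. The remaining 4 sites of the 3′UTR lay 2588, 1039, 392 and 337 nt before the end with 13, 15, 66 and 23 deletions. Another 2 sites were in coding exons 3 and 8, with all 23 and all 15 tags deleted. The deletions of CNOT6 were thus spread along the transcript rather than gathered at its end.

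Among the CCR4-NOT subunits without catalytic activity, CNOT3 had 48 deletions among 4023 tags (1.19%, 0.901 to 1.58) 8 nt before an end. CNOT11 had 61 among 1671 (3.65%, 2.85 to 4.66) 15 nt before its end, and CNOT2 had 41 among 1590 (2.58%, 1.91 to 3.48) 28 nt before its end. CNOT9 had 47 among 3083 (1.52%, 1.15 to 2.02), 680 nt before the nearest end, with AATAAA starting 1 nt downstream of the deletion. CNOT2 also had all 16 tags deleted beside AATAAA in intron 14, which is 3′UTR in another transcript, and all 9 in intron 2. CNOT4, a ubiquitin ligase associated with the complex, had only an intronic site with all 9 tags deleted. CNOT7 had 10 of 16 tags deleted in intron 3 of the canonical transcript, with AATAAA starting 15 nt upstream of the deletion. No site was listed in CNOT1, the scaffold, or CNOT10.

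The remaining deadenylases, PAN2, PAN3 and PARN, had 0 sites in 3 genes, with canonical 3′UTRs of 676, 2816 and 1019 nt. Of the decapping factors, 3 of 6 had sites. LSM1, a subunit of the ring that binds decaying mRNAs, had 240 deletions among 5460 tags (4.4%, 3.88 to 4.97) at chr8:38163371, 32 nt before the canonical end, with 3 more sites in the same cluster at 73 to 110 deletions. DCP2, the decapping enzyme, had 62 among 1375 (4.51%, 3.53 to 5.74) at chr5:113020954, 1241 nt before an end, and 2 sites with all 19 and all 9 tags deleted further upstream. DCP1A, its activator, had 46 among 954 (4.82%, 3.63 to 6.37) and 40 among 438, at 32 and 56 nt before the end. DCP1B, EDC3 and EDC4, which also promote decapping, had none.

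The 5′-3′ exonucleases divided. XRN2, the nuclear enzyme that also degrades the RNA left after cutting, had the strongest site of the decay group, 799 deletions among 8530 tags (9.37%, 8.77 to 10) at chr20:21389789, 36 nt before its only annotated end. Only 190 of the 6372 genes had a stronger 3′UTR site. Further sites 30 and 20 nt before the end had 118 and 78 deletions, and a site in coding exon 29 had all 12 tags deleted. XRN1, the cytoplasmic enzyme, had none in a canonical 3′UTR of 4904 nt, while that of XRN2 was 490 nt long. Both UPF genes were bound near their ends. UPF1, the helicase of nonsense-mediated decay, had 72 deletions among 2650 tags (2.72%, 2.16 to 3.41) at chr19:18868220, 9 nt before the end. UPF2, its partner, had 60 among 478 (12.6%, 9.88 to 15.8) and 50 among 1926 (2.6%, 1.97 to 3.41), 54 and 16 nt before the end, and an intronic site with all 10 tags deleted.

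Unbound genes had shorter canonical 3′UTRs than bound ones as a median, as in the whole annotation. Sites were sought in the 3′UTRs of all transcripts, which together can be longer than the canonical one. They spanned 4061 nt in SYMPK, which was unbound, and 6659 nt in FIP1L1, which was bound, beside canonical lengths of 153 and 1416 nt. The canonical 3′UTR had a median of 1416 nt in the 31 bound genes and 813 nt in the 15 unbound ones, beside 1604 nt and 744 nt over all protein-coding genes. In the cleavage group the medians were 2142 and 153 nt, and in the decay group 1356 and 1010 nt. The small poly(A)-binding group had the opposite order, with 386 nt in bound genes and 880 nt in PABPN1, its only unbound gene. PAN3, EDC3, CPSF7 and XRN1 were unbound with 3′UTRs of 2816, 2057, 1984 and 4904 nt.

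The 2 main groups had similar shares of 3′UTR sites near the ends of transcripts. In the cleavage group 23 of 36 sites (63.9%, 47.6 to 77.5) lay within 100 nt upstream of an annotated end, and in the decay group 22 of 36 (61.1%, 44.9 to 75.2), beside 65.8% of all 21230 3′UTR sites in the list. Median distances were 40.5, 47.5 and 38 nt. Sites of 1 gene share a transcript, so these intervals are too narrow as statements about genes. When only the end of the canonical transcript counted, the share was 41.9% of 31 sites in the cleavage group and 60% of 35 in the decay group. The 65.8% of the whole list counts all annotated ends, so these 2 shares cannot be read against it. The strongest sites of CPSF6, FIP1L1 and PAPOLG were at internal ends. The difference between the groups was not tested.

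**Figure D2:**
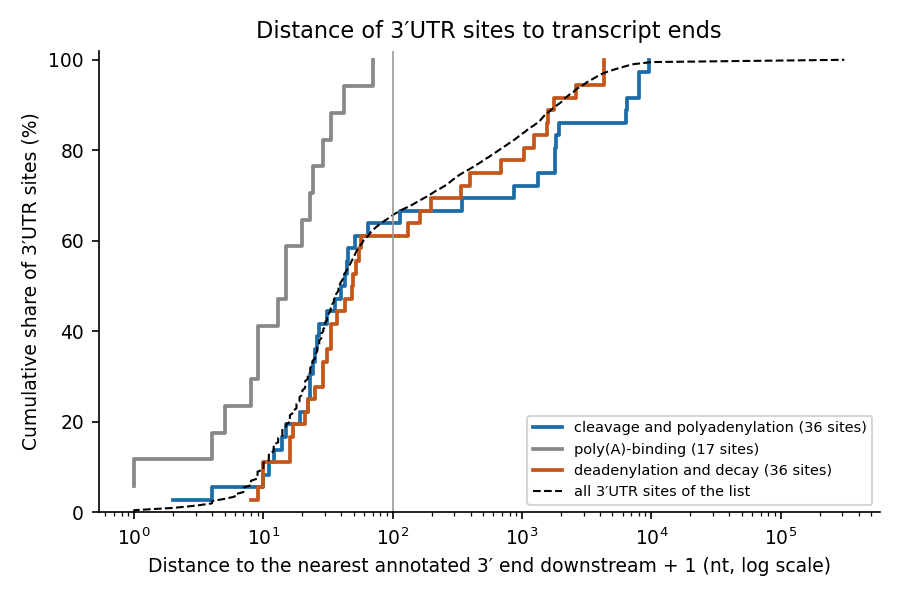
Cumulative share of 3′UTR sites by distance to the nearest annotated end downstream (log axis, nt plus 1), for the 3 groups and for all 3′UTR sites. The vertical line marks 100 nt, by which 63.9% of cleavage, 61.1% of decay and 65.8% of all sites are reached.

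Sites near ends carried more deletions as a median. In the cleavage group this was a median of 83 deletions, against 41 for the 13 sites further away, and in the decay group 71.5 against 35 for 14 sites. Over the whole list the medians were 72 and 52. The quartiles in the decay group were 51 to 109 near ends and 15.2 to 68.2 away from them, so the 2 ranges overlapped.

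**Figure D3:**
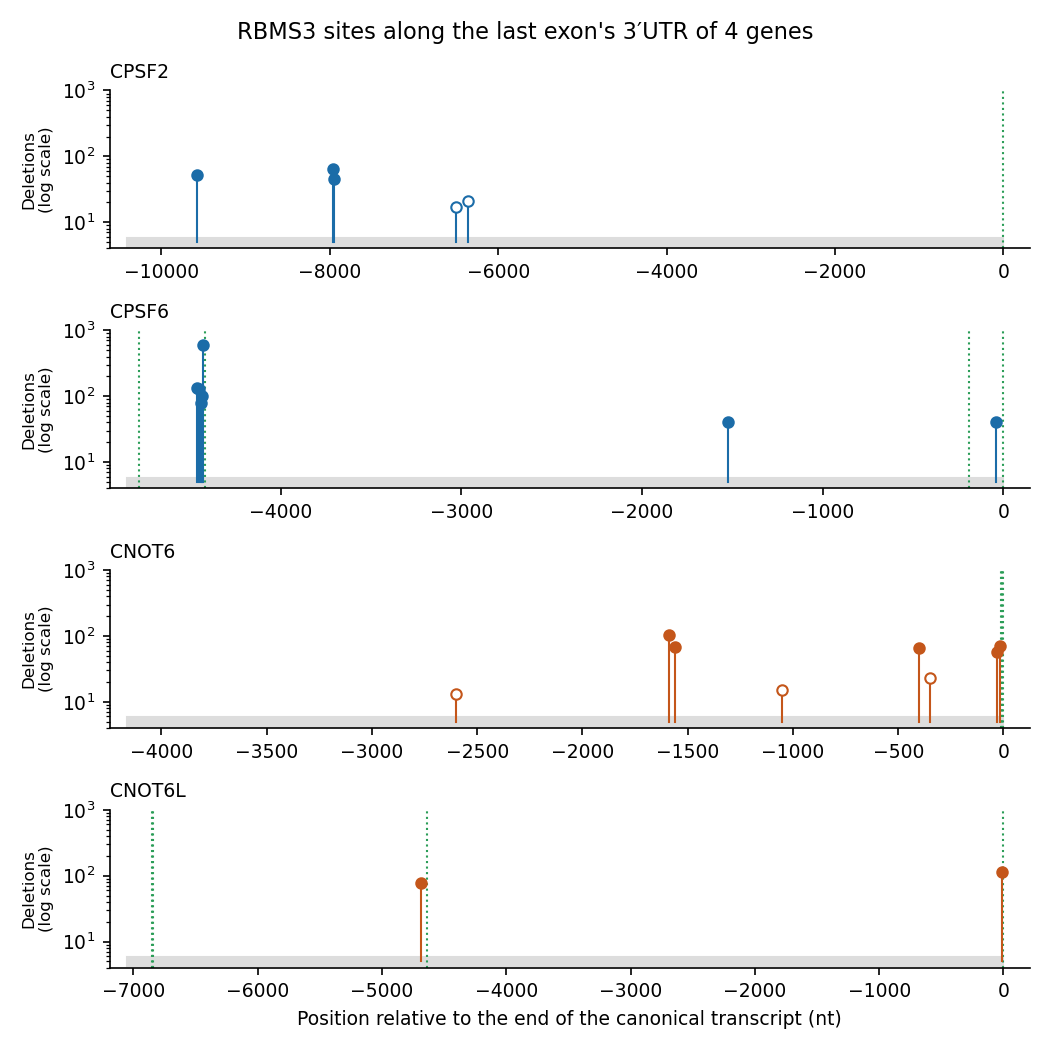
RBMS3 sites along the 3′UTR of the last exon of CPSF2, CPSF6, CNOT6 and CNOT6L, by position relative to the canonical end (nt) and deletions (log axis). Filled points have the deletion in under 30% of tags, dotted lines mark annotated ends, and the tallest points stand far from the canonical end in CPSF2, CPSF6 and CNOT6, and at it in CNOT6L.

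Poly(A) signals were then sought in the 51 nt centred on the strongest site of each cluster, where sites within 50 nt formed a cluster. Only the transcript strand was searched, for AATAAA and ATTAAA. One of them was present in 12 of 21 clusters of the cleavage group (57.1%, 36.5 to 75.5) and 20 of 24 of the decay group (83.3%, 64.1 to 93.3), beside 60.6% of the 9980 3′UTR clusters in the list. This order depended on the sites counted. With 1 site per gene the shares were 91.7% of 12 in the cleavage group and 85.7% of 14 in the decay group. With at least 50 deletions they were 80% of 10 and 84.6% of 13. Shares of the whole list under these rules are not given here, so 60.6% is no comparator for them. Near annotated ends both groups were high, with 9 of 11 (81.8%, 52.3 to 94.9) and 11 of 12 (91.7%, 64.6 to 98.5), beside 76.3% of all. Away from ends, 3 of 10 cleavage clusters (30%, 10.8 to 60.3) and 9 of 12 decay clusters (75%, 46.8 to 91.1) had a signal, beside 40.5% of all. The decay clusters in question came from CNOT2, CNOT6, CNOT7, CNOT9 and DCP2, with 5 of the 12 from CNOT6 alone, and 4 of the 10 cleavage clusters came from CPSF2.

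The gap between the groups was wider among sites with the deletion in 30% or more of their tags, which have few tags. Where under 30% of the tags carried the deletion, 11 of 14 cleavage clusters (78.6%, 52.4 to 92.4) and 15 of 17 decay clusters (88.2%, 65.7 to 96.7) had a signal, beside 75.6% of all. At 30% or more these were 1 of 7 (14.3%, 2.57 to 51.3) and 5 of 7 (71.4%, 35.9 to 91.8), beside 19.5%. The intervals of the groups overlapped in each of these comparisons, and no test of the difference was made.

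**Figure D4:**
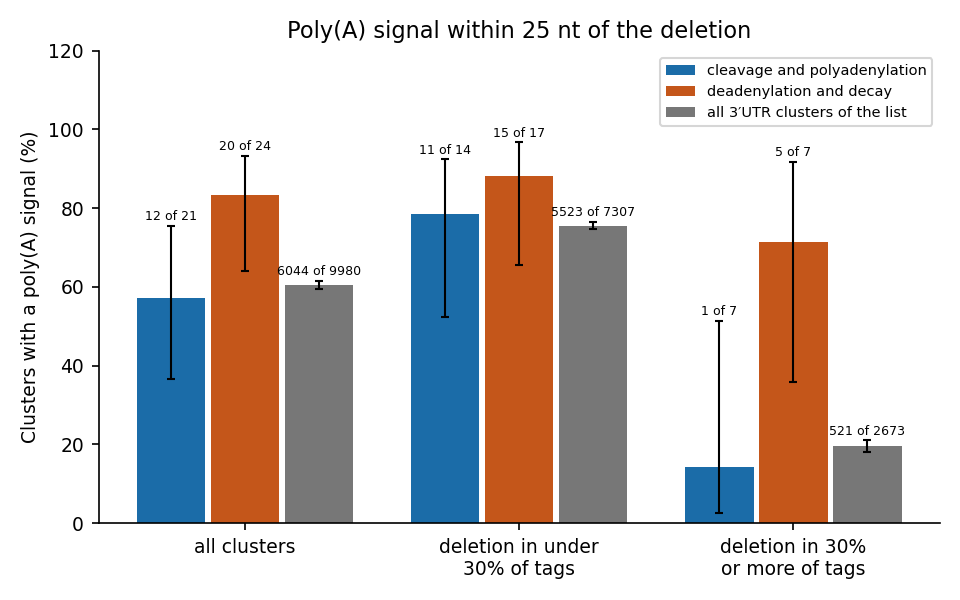
Percentage of 3′UTR clusters with AATAAA or ATTAAA within 25 nt of the deletion in the cleavage group, the decay group and the whole list, with 95% Wilson intervals and counts above the bars. In clusters with the deletion in under 30% of tags the 3 bars stand at 78.6%, 88.2% and 75.6%.

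The deletion percentage of the 107 sites went with depth, which is the denominator of the percentage. Only sites that passed the caller's filter are listed, so this split cannot be read as a trait of these genes. In 77 sites under 30% of the tags had the deletion. They had 141 to 44106 tags (median 3770) and 37 to 925 deletions, and 75 of them were in 3′UTRs. The other 30 had 7 to 61 tags (median 12) and 7 to 27 deletions. Of these 14 were in 3′UTRs, 10 in introns, 4 in coding sequence and 2 in noncoding exons, and 23 of the 107 sites had the deletion in every tag. Outside 3′UTRs, every site of these genes rested on 61 tags or fewer, except the 5′UTR site of PABPC1 and the intron 7 site of PAPOLA.

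**Figure D5:**
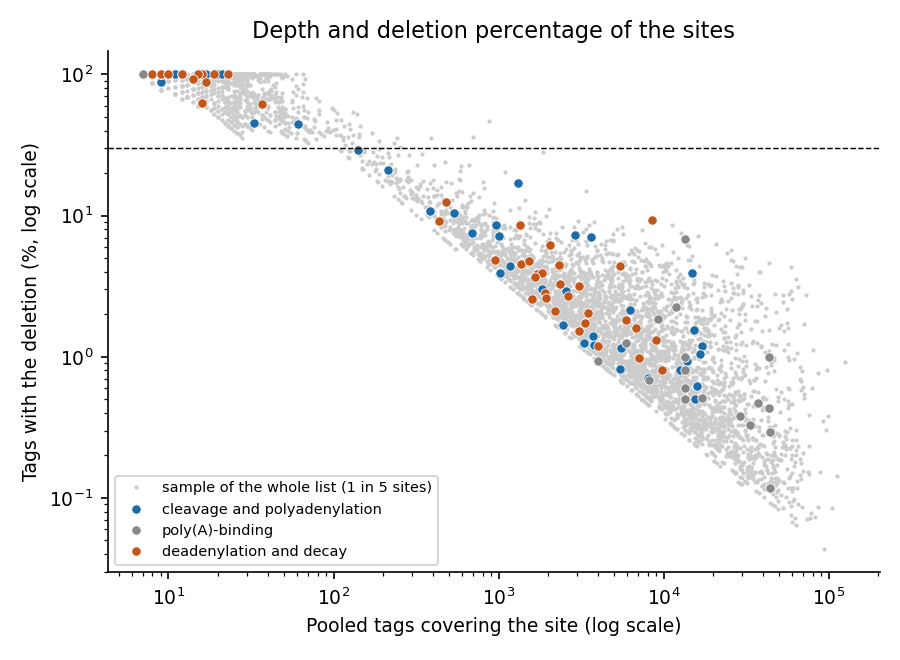
Percentage of tags with the deletion against the pooled tags that cover the site (both axes log), for the 107 sites by group and for 1 in 5 sites of the list in light grey. The dashed line is at 30%; above it all 30 sites of the 46 genes have 61 tags or fewer.

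The AUA motif was about as common around the 3′UTR clusters as in the list, while runs of A had a higher share in all groups but the decay group. The motif of the study, a run of 7 bases with A, G or T, then A or T, then ATA, then A or T, then A, was found on the transcript strand in 23 of 49 clusters (46.9%, 33.7 to 60.6), beside 47.7% of all. It can overlap AATAAA. A match that did not include AATAAA was present in 6 of 49 (12.2%, 5.73 to 24.2), beside 14.6%. By group the motif was in 9 of 21 cleavage clusters (42.9%, 24.5 to 63.5) and 13 of 24 decay clusters (54.2%, 35.1 to 72.1). The deleted base was T in 41 of 49 clusters (83.7%, 71 to 91.5), beside 74.4%. A run of 6 or more A lay in the window of 10 of 49 clusters (20.4%, 11.5 to 33.6), beside 9.25% of all. By group it lay in 5 of 21 cleavage clusters (23.8%, 10.6 to 45.1), 2 of 24 decay clusters (8.33%, 2.32 to 25.8) and 3 of 4 poly(A)-binding clusters. Those 4 clusters came from PABPC1 and PABPC4 alone. Clusters of the same gene share a transcript, so these intervals are too narrow as statements about genes. The difference in A runs from the list was not tested. PAPOLA, CLP1, NUDT21, RBBP6, XRN2, CNOT6L, PABPC1 and PABPC4 had such runs near their strongest or deepest 3′UTR sites. The part of A runs in tag counts, given capture with oligo(dT), was not tested.

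Other genes of the same pathways had sites about as often as these. Of 69 further genes, 47 had a site (68.1%) and 43 a 3′UTR site (62.3%), read against the same 37.6% and 31.8%. By group, sites were found in 9 of 13 genes of 3′ end formation, 13 of 16 cofactors of the poly(A) tail, 10 of 14 decapping and P-body factors, 3 of 8 factors of nonsense-mediated decay and 12 of 18 genes of the exosome and 3′-5′ decay. The strongest 3′UTR sites of the groups other than nonsense-mediated decay were those of SLBP, the histone stem-loop-binding protein (245 among 8233), TOB1, which recruits CCR4-NOT (511 among 15914), DDX6, the helicase of P-bodies (272 among 5191), and DIS3, the catalytic subunit of the exosome (404 among 1132). The sites of SLBP, TOB1 and DIS3 lay 38, 26 and 14 nt before an annotated end, and that of DDX6 lay 2433 nt before one.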

How the data were processed

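Cells were crosslinked with ultraviolet light, and RNA bound to FLAG-RBMS3 was recovered and sequenced with molecular identifiers. The authors aligned reads to hg38 with the CLIP Tool Kit, reduced them to unique tags, pooled the 2 replicates and called deletion sites (FDR under 10%, fold above 10, the fold being undefined further). The deposited values are counts of tags and of deletions per site, not normalized. The base at the centre of each 21-nt interval was taken as the deletion. Sites were placed on GENCODE release 44, all transcripts, in the order 3′UTR, 5′UTR, coding sequence, noncoding exon and intron. Distances run to the nearest downstream end of a transcript with a 3′UTR. Canonical means the Ensembl canonical transcript. Depth is given per site, since library totals were not used here. No comparison had replicate values, so no test was run. Every gene is reported as bound or unbound, with the strongest 3′UTR site and the sites outside 3′UTRs described. Genes and lists were chosen with earlier results of these data known. Functions were tested on simulated data. Python 3.11.15, scipy 1.17.1, pysam 0.24.0 and matplotlib 3.10.9 were used. The strongest site of 1 pathway group is not reported here.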

Additional observations from a re-analysis of the deposited data

How the results depend on the processing

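No paired analysis was possible because the replicates form 1 group and were pooled before sites were called, and for the same reason no replicate could be left out. Of the alternatives tried, those on 1000 nt downstream of genes and on ends of transcripts without a 3′UTR were chosen after seeing the data. Bound genes fell from 31 to 19 of 46, and from 15 to 7 of 24 in the decay group, with at least 10% of tags deleted, and from 14 to 9 of 19 in the cleavage group with at least 50 deletions. With sites up to 1000 nt downstream counted, 33 genes were bound. The shares of all protein-coding genes bound at these settings are not given here, so these counts cannot be read against them. The share of 3′UTR sites near an end moved in the cleavage group from 63.9% to 81.8% with at least 50 deletions, 36.4% with at least 10% of tags deleted and 41.9% with 1 representative transcript. In the decay group it moved from 61.1% to 12.5% with at least 10% and 75.9% with under 30% of tags deleted. The share of clusters with a signal moved in the cleavage group from 57.1% to 91.7% with 1 site per gene, 80% with at least 50 deletions, 27.3% with at least 10% and 78.6% with under 30% of tags deleted, and 23.8% within 10 nt. In the decay group it moved from 83.3% to 62.5% with at least 10% of tags deleted and 45.8% within 10 nt. The cause of these moves was not tested. Some of the filters leave smaller sets of sites. With at least 50 deletions, 10 genes of the decay group were bound, a move of 1.5 times. All other alternatives moved these values by less than 1.5 times for counts of genes or within the 95% interval for shares.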

Other observations

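Of the 9 unbound genes of the decay group, 2 had a site within 1000 nt downstream of the annotated gene. EDC4 had all 25 tags deleted at a position 11 nt downstream, inside a noncoding exon of another gene on the same strand, and CNOT1 had 13 of 19 tags deleted (68.4%, 95% Wilson interval 46 to 84.6) 412 nt downstream, outside any annotated gene. Among the 28 clusters of the 46 genes with a poly(A) signal and the deletion in under 30% of tags, the signal started upstream of the deletion in 14 and at or downstream of it in 14. These were 5 and 6 in the cleavage group and 9 and 6 in the decay group, beside 2792 and 2731 over all 5523 such clusters.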
